A study of Homo sapiens with 27 samples.

Results

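The cytoplasmic ribosomal protein genes are the genes that encode the protein parts of the ribosomes in the cell body, as opposed to those in mitochondria. Members were taken by gene symbol, as every RPL or RPS symbol with a number and an optional A, L or X, together with RPSA, RPLP0, RPLP1 and RPLP2. This gave 82 genes, 49 of the large and 33 of the small subunit, each listed in all 4 tables of the series, of 19540 genes listed in the 3′ UTR table.

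3 prostate cancer cell lines, LNCaP, LNCaP95 and 22Rv1, were infected with lentivirus carrying a control shRNA (CTRL sh) or with CPSF1 sh1 or CPSF1 sh2, the 2 shRNAs that target CPSF1, so all groups, controls included, carried a virus and passed puromycin selection. Each of the 9 groups had 3 replicates, which made 27 libraries, from cells seeded and grown for 72 h in medium with 10% serum. LNCaP95 was grown without phenol red and the other lines with it, so line and medium cannot be told apart between controls. Infected cells were expanded after selection, and each line had 1 control shRNA. Poly(A) Click-seq (PAC-seq), which reads the 3′ ends of polyadenylated RNA, was counted over 3′ UTRs, introns, coding sequences (CDS) and the 10 kb downstream of annotated 3′ UTRs.

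Ribosomal proteins are made in near-equal amounts and are assembled with ribosomal RNA in the nucleolus. Their messages are short, abundant and mostly begin with a 5′ terminal oligopyrimidine (TOP) tract, a cytidine followed by a run of pyrimidines, through which mTOR signaling controls their translation. CPSF1 belongs to CPSF, the cleavage and polyadenylation specificity factor that binds the poly(A) signal (AAUAAA or a close variant) and directs cleavage of the pre-mRNA at the end of the gene. Where cleavage at the annotated end is skipped, a message may be cleaved at a site farther downstream, and its 3′ end can then fall in the 10 kb region.

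The libraries held 3452410 to 12425400 reads over the 4 tables, but only 170330 to 728430 in the 10 kb table, so single members often had fewer than 10 control reads there. CPSF1 itself fell in the 3′ UTR table by 1.19 ± 0.17 (LNCaP), 1.05 ± 0.18 (LNCaP95) and 0.73 ± 0.14 (22Rv1) on the log2 scale (± SE), with edgeR adjusted p of 8.31e-05, 0.000301 and 0.0164. The summed level of 8 prostate luminal markers was 3093 to 9832 CPM (reads scaled to the library total), against 7.99 to 41.0 for 5 fibroblast, 0 to 4.47 for 2 endothelial and 1.41 to 25.1 for 3 leukocyte markers. A pair of LNCaP libraries stood apart at RPS2, a small subunit protein: 41133 reads lay downstream of RPS2 in CTRL sh replicate 2 and 45167 in CPSF1 sh2 replicate 2, against 1 to 17 in the other 25 libraries. In the latter library RPS2 had 6904 3′ UTR reads, against 43680 to 107664 in the other LNCaP libraries. Sums downstream are therefore given without RPS2, and the LNCaP downstream count also without both libraries. RPL17 was listed at 0 reads in every library in the 3′ UTR and CDS tables. Reads shared with the many processed pseudogenes of this family make each member's level uncertain.

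The ribosomal protein genes made up a large part of the 3′ UTR reads, and that part differed by line. In control libraries their 3′ UTRs held 26.99, 26.1 and 26.6% (LNCaP), 12.6, 12.1 and 12.6% (LNCaP95), and 20.6, 19.7 and 21.2% (22Rv1) of all 3′ UTR reads. The 3 lines did not overlap, and the LNCaP95 share was below the LNCaP share in every library, knockdown included. No test was run on these sums. In such bulk libraries, fewer cells of a kind and less RNA per cell cannot be told apart.

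RPS2 was the most abundant member in the controls of each line, at 1.89 ± 0.58% (SD, n = 3) of LNCaP 3′ UTR reads, 0.743 ± 0.11% of those of LNCaP95 and 1.27 ± 0.16% of those of 22Rv1. RPL26 and RPL13 followed when reads were averaged over the 9 control libraries. RPL26, a large subunit protein that also binds the p53 message, had control levels of 12954, 12660 and 15057 CPM in LNCaP. RPL13 had 11829, 9525 and 9578 CPM there. For 57 of 81 members with reads more than 90% of control reads lay in the 3′ UTR, and the median over members was 98.8%. RPS27L, RPL10 and RPL18 had 54.9, 49.6 and 45.3% of their reads in the CDS. Downstream reads were rare, at a median of 0.0533% of a member's control reads.

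Between the control libraries, members differed between lines far more often than genes in general. In LNCaP95 against LNCaP, 74 of 80 members tested were lower and 2 higher (edgeR adjusted p under 0.05), where 20.2% of 11501 genes were lower and 19.1% higher. The median member differed by −1.29 on the log2 scale, where the median gene was near 0. In 22Rv1 against LNCaP, 49 of 80 members were lower and 3 higher, with a median of −0.50, where 23.2% of all genes were lower and 23.9% higher. In 22Rv1 against LNCaP95, 67 members were higher and 2 lower, with a median of 0.88, where 28.1% of all genes were higher and 26.5% lower. Large and small subunit members had medians of −1.29 and −1.29 in LNCaP95 against LNCaP. The 3 comparisons share their control libraries in pairs.

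RPL13A and RPS6 were among the members with the largest differences between lines. RPL13A, a large subunit protein that can leave the ribosome and repress selected messages after interferon-γ, had control levels of 7775, 6824 and 7547 CPM in LNCaP. It had 1151, 946 and 1079 CPM in LNCaP95 and 3898, 2843 and 3282 CPM in 22Rv1. The lines did not overlap, and LNCaP95 was lower than LNCaP with a log2 difference of −2.81 ± 0.14 (SE, edgeR adjusted p = 2.76e-10). RPS6, the small subunit protein phosphorylated by S6 kinases downstream of mTOR, had 5946, 5097 and 5668 CPM in LNCaP, 1087, 1109 and 1243 CPM in LNCaP95 and 1697, 2336 and 2300 CPM in 22Rv1. It was lower in LNCaP95 (log2 −2.28 ± 0.14, edgeR adjusted p = 2.60e-09) and in 22Rv1 (−1.39 ± 0.14, edgeR adjusted p = 2.92e-07).

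RPS12 and RPL28 were lower in LNCaP95 than in both other lines, which were closer to each other. RPS12 levels were 6326, 6348 and 5647 CPM in LNCaP and 4782, 4299 and 5313 CPM in 22Rv1, against 1272, 1184 and 1298 CPM in LNCaP95. The difference of LNCaP95 from LNCaP was −2.29 ± 0.12 for RPS12 and −2.61 ± 0.18 for RPL28 (edgeR adjusted p = 4.67e-10 and 1.15e-08). Between 22Rv1 and LNCaP the difference was −0.34 ± 0.12 for RPS12 and −0.38 ± 0.17 for RPL28 (edgeR adjusted p = 0.0231 and 0.0768). RPL22, a large subunit protein that binds viral and T-cell RNAs and is not needed for translation in general, went the other way. Its level was 994, 960 and 1022 CPM in LNCaP and 1274, 1389 and 1277 CPM in LNCaP95, a difference of 0.40 ± 0.14 (edgeR adjusted p = 0.0269). The call was lost, at 0.36 to 0.42, when any 1 of the LNCaP or LNCaP95 control libraries was left out. RPS27A, a fusion of ubiquitin with a small subunit protein, did not pass the test in that comparison (−0.02 ± 0.11, edgeR adjusted p = 0.884).

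The stalk and the 5S particle were also lower in LNCaP95 than in LNCaP. RPLP0, RPLP1 and RPLP2, which form the stalk that recruits elongation factors, differed by −1.36 ± 0.11, −1.48 ± 0.12 and −1.03 ± 0.11 in LNCaP95 against LNCaP (edgeR adjusted p = 4.76e-08, 7.48e-08 and 1.90e-06). RPL5 and RPL11, which carry 5S ribosomal RNA and bind MDM2 when free of ribosomes, differed by −0.87 ± 0.12 and −1.25 ± 0.13 there (edgeR adjusted p = 3.41e-05 and 1.21e-06). In 22Rv1 against LNCaP the same values were 0.01 ± 0.12 and 0.02 ± 0.13, and neither passed the test. RPSA, the small subunit protein also described as a laminin receptor, differed by −1.30 ± 0.12 in LNCaP95 and −0.01 ± 0.12 in 22Rv1, both against LNCaP.

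The tissue-restricted paralogs RPL39L and RPL10L differed widely between lines. RPL39L, a copy of RPL39 known from male germ cells, had 147, 412 and 515 reads in its 3′ UTR in the 22Rv1 controls. It had 7, 1 and 2 reads in the LNCaP controls and 3, 2 and 0 in the LNCaP95 controls. The pooled share of reads was 146-fold higher in 22Rv1 than in LNCaP, with a 95% counting interval of 78.9 to 305. RPL10L, the retrotransposed copy of X-linked RPL10 that is used in spermatogenesis, had 100, 101 and 114 reads in the LNCaP95 controls and 9, 12 and 21 in the LNCaP controls. It had 0 reads in all 9 libraries of 22Rv1, so its level was at least 70.5-fold higher in LNCaP95 than in 22Rv1, taking 3 reads over the 22Rv1 controls as the floor. RPL3L, the striated muscle copy of RPL3, had 0 to 5 reads in its 3′ UTR in every library. Intervals and floors cover counting error only.

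**Figure D1:**
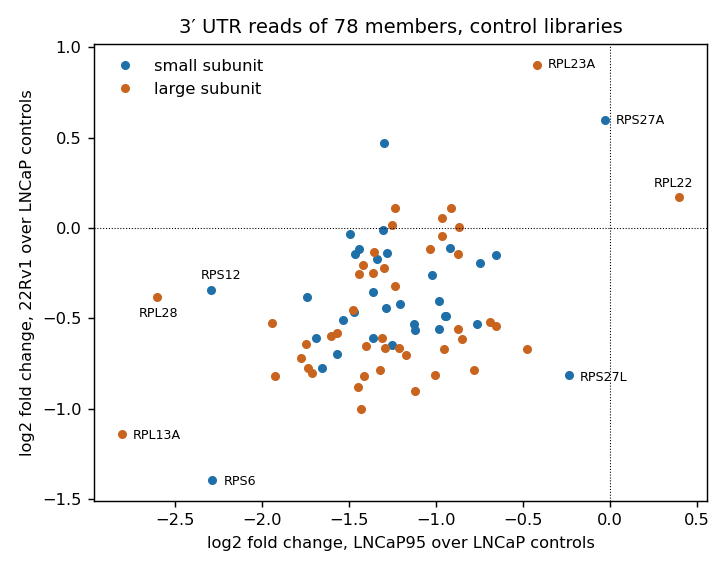
Log2 fold change of each of 78 members (points; blue small, orange large subunit) between control libraries in the 3′ UTR table, LNCaP95 over LNCaP on the x axis and 22Rv1 over LNCaP on the y axis; both axes use the same LNCaP libraries, and RPL10L and RPL39L lie outside the plotted range and are left out. Nearly all points lie left of 0, with RPL13A, RPL28, RPS12 and RPS6 at the far left and RPL22 to the right.

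The starts of 4 members with large line differences, and of RPL22, are shown so that the TOP tract can be read in them. RPL10L, which also differed widely, begins with G in its window and has no such tract. They are 30 bases from RefSeq promoter windows (GRCh38.p14), 10 before the annotated start and 20 from it on, with the pyrimidine tract that begins at the start in capitals.
RPL13A, chr19:49487598-49487627, plus strand: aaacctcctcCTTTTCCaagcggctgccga
RPL28, chr19:55385922-55385951, plus strand: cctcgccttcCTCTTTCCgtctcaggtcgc
RPS12, chr6:132814559-132814588, plus strand: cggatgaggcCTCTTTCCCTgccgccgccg
RPS6, chr9:19380217-19380246, minus strand: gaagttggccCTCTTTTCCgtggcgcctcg
RPL22, chr1:6199576-6199605, minus strand: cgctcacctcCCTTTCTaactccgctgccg
A RefSeq window was found by symbol for 64 members, and 42 of them (65.6%) began with C followed by at least 4 pyrimidines (C or T, on the coding strand, from the annotated start). Among 27305 windows of all genes the share was 4.04%. A start that is annotated a few bases away from the one in use would be missed by this match.

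CPSF1 knockdown was accompanied by a small shift of the 3′ UTR reads away from these genes. The members' share of 3′ UTR reads in the 6 knockdown libraries (lowest, median, highest) was 21.5, 22.7 and 24.9% for LNCaP, 10.2, 11.2 and 12.5% for LNCaP95 and 18.2, 18.8 and 19.6% for 22Rv1. The means fell from 26.6 ± 0.44 to 22.9 ± 1.30% (SD, n = 3 and 6) in LNCaP and from 20.5 ± 0.74 to 18.8 ± 0.52% in 22Rv1, where knockdown and control libraries did not overlap. In LNCaP95 the means were 12.4 ± 0.30 and 11.2 ± 0.73%, and the libraries overlapped. These are descriptions with no test, on sums that use RPS2.

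**Figure D2:**
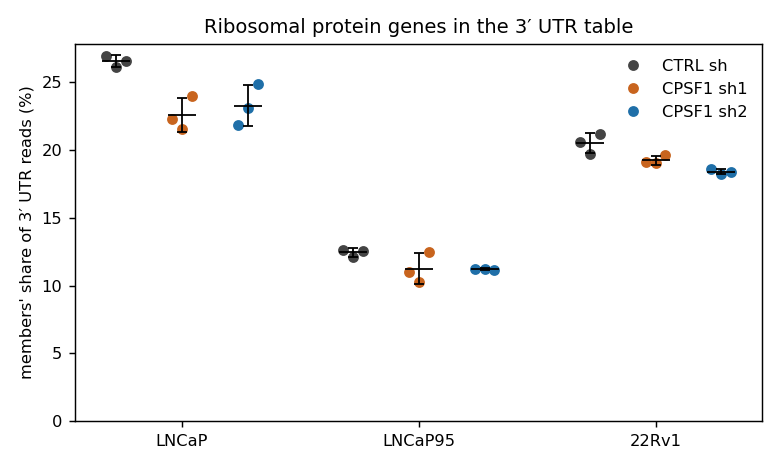
Share of all 3′ UTR reads that lay in the 82 members, in percent, for each of 27 libraries (points), with mean and SD over 3 replicates (bars), by line and shRNA. LNCaP95 lies lowest at 10.2 to 12.6%, and in LNCaP and 22Rv1 the knockdown points lie below the control points.

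By gene, knockdown lowered 17 of 79 members tested in LNCaP and raised 1, where 10.1% of all 11021 genes were lower and 8.24% higher. In LNCaP95 it lowered 22 of 79 and raised 0, where 15.2% of genes were lower and 15.2% higher. In 22Rv1 it lowered 3 of 79 and raised 0, where 0.791% were lower and 0.678% higher. The counts at unadjusted p under 0.05, in either direction, were 34, 37 and 23 members, where 31.8, 42.1 and 14.2% of genes reached it. The median member changed by −0.24, −0.28 and −0.17, against 0.02, 0.01 and −0.01 over all genes, and 67 of 78 members tested in all 3 lines were below 0 in each. Fits without single LNCaP libraries called 7 to 29 members lower: 7 without CTRL sh replicate 1 and 29 without CPSF1 sh2 replicate 2. In LNCaP95 the count was 14 without CTRL sh replicate 1, and in 22Rv1 it ran from 0 without CTRL sh replicate 3 to 6 without CPSF1 sh1 replicate 1. These ranges are of member counts, without the counts over all genes.

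RPS27 and RPS29, zinc-binding proteins of the small subunit, had the lowest mean changes over the 3 lines among members that passed the test in at least 1. RPS27 control levels in LNCaP were 6739, 5608 and 6758 CPM, and the knockdown libraries ran from 2262 through a median of 3468 to 4076 CPM, with no overlap. It changed by a log2 value of −0.93 ± 0.16 (LNCaP), −0.93 ± 0.17 (LNCaP95) and −0.24 ± 0.16 (22Rv1; edgeR adjusted p = 0.000584, 0.000482 and 0.569). RPS29 control levels in LNCaP95 were 1863, 1645 and 1968 CPM, and knockdown levels were 779, 966 and 1060 CPM (lowest, median, highest). Its change was −0.62 ± 0.11, −0.94 ± 0.12 and −0.46 ± 0.11 in LNCaP, LNCaP95 and 22Rv1 (edgeR adjusted p = 0.00104, 2.16e-05 and 0.0452). RPL34 and RPS23, a protein of the decoding center, were with RPS29 the members lower in all 3 lines. RPL34 fell by 0.57 ± 0.12, 0.51 ± 0.12 and 0.56 ± 0.10 on the log2 scale (edgeR adjusted p = 0.00283, 0.00408 and 0.00804). In 22Rv1 these calls were not all stable: RPL34 lost its call without CTRL sh replicate 3 (−0.49), RPS23 and RPS29 lost theirs with a replicate block, and RPS29 (−0.40 to −0.51) lost it without any single library other than CPSF1 sh1 replicate 1. RPS29 also lost it with more than 2 CPM required in every library (−0.46) and with DESeq2 size factors (−0.47).

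RPL13, RPL3 and RPSA fell in LNCaP and LNCaP95. RPL3, which shapes the peptidyl transferase center, changed by −0.50 ± 0.13, −0.63 ± 0.13 and −0.45 ± 0.13 in LNCaP, LNCaP95 and 22Rv1 (edgeR adjusted p = 0.0141, 0.00124 and 0.0914). RPSA changed by −0.65 ± 0.12, −0.70 ± 0.15 and −0.11 ± 0.09 (edgeR adjusted p = 0.000948, 0.00143 and 0.651). RPS27L, the p53-induced paralog of RPS27, was the member called higher in the 3′ UTR, in LNCaP. Its canonical end lies outside its counted 3′ UTR region. Of its control reads 54.9% lay in the CDS, where 0 members were called higher in LNCaP. In the 3′ UTR its LNCaP controls had 255, 341 and 311 CPM and the knockdown libraries 333, 430 and 531 CPM (lowest, median, highest), which overlap. The 3′ UTR change was 0.49 ± 0.15 (edgeR adjusted p = 0.0297). The call was lost with a replicate block (0.49), without CTRL sh replicate 1 (0.38) or 3 (0.51), and without CPSF1 sh1 replicate 1 (0.48) or 2 (0.42). The line-by-knockdown term in the 3′ UTR table was called for 0 members in LNCaP95 against LNCaP and in 22Rv1 against LNCaP, where 9.58 and 5.11% of all genes were called. At unadjusted p under 0.05 the counts were 3 and 6 members, where 23.4 and 19% of genes reached it. In 22Rv1 against LNCaP95, 2 members were called (10.7% of all genes), RPSA at 0.60 and RPS29 at 0.48 (edgeR adjusted p = 0.0234 and 0.0496).

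Downstream, the members moved the other way and by much more. Without RPS2, the 10 kb regions held 0.0756, 0.0707 and 0.0779% of the members' reads in the LNCaP controls and 0.242, 0.338 and 0.433% (lowest, median, highest) in the knockdown libraries. In LNCaP95 the controls had 0.0791, 0.0808 and 0.108% and the knockdown libraries 0.356, 0.575 and 0.711%. In 22Rv1 the controls had 0.0938, 0.0796 and 0.0732% and the knockdown libraries 0.214, 0.300 and 0.376%. In no line did knockdown and control libraries overlap. The mean was higher 4.46-fold (LNCaP), 5.95-fold (LNCaP95) and 3.63-fold (22Rv1). Over all genes the downstream share of reads went from 4.88 to 6.28%, 3.62 to 6.01% and 4.66 to 5.87% in these lines.

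**Figure D3:**
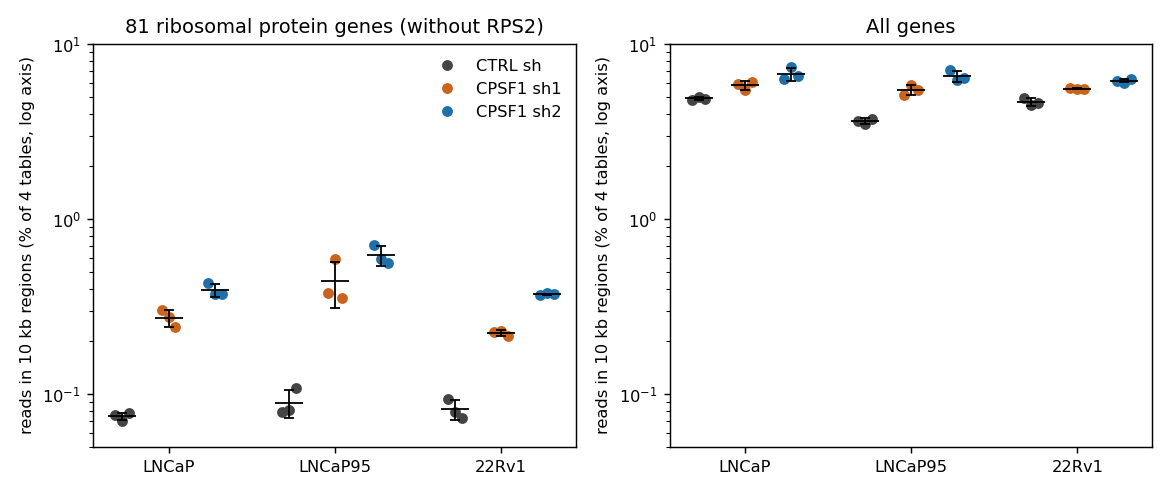
Percent of reads, over the 4 tables, that fell in 10 kb regions (log axis), for 81 members without RPS2 (left) and for all genes (right), in each library (points) with mean and SD over 3 replicates (bars). On the left the controls lie at 0.0707 to 0.108% and the knockdown libraries at 0.214 to 0.711%.

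By gene, 36 of 74 members tested in LNCaP had more 10 kb reads after knockdown and 2 had fewer, where 9.52% of 13441 genes had more and 5.2% fewer. In LNCaP95 28 of 76 had more and 4 fewer (17.6 and 10.1% of genes), and in 22Rv1 25 of 72 had more and 0 fewer (7.26 and 2.73% of genes). The median member changed by 1.18, 1.08 and 1.13 on the log2 scale, against 0.13, 0.22 and 0.19 over all genes. With members that had no control read set at their bound, the medians were 1.18, 1.04 and 1.13. Members tested are those above a mean of 2 CPM, which in this table is about 1 read per library, so a member seen downstream in knockdown libraries only also entered the test. Without both LNCaP libraries with RPS2 reads downstream, 28 members were higher and 2 lower in LNCaP, with no count over all genes given here. The small subunit had medians of 1.36, 1.27 and 1.44, and the large subunit 0.83, 0.87 and 0.49, with no test of the difference. In 22Rv1, with more than 2 CPM required in every library, 14 of 47 members were higher and 1 lower. Of all 7297 genes tested there, 580 were higher and 602 lower. The members' median was 0.64, against −0.06 over all these genes.

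Downstream reads relative to 3′ UTR reads, tested as 1 log2 ratio, rose for 37 of 73 (LNCaP), 33 of 74 (LNCaP95) and 23 of 71 (22Rv1) members, where it rose for 8.39, 21.2 and 6.65% of genes. It fell for 0, 3 and 0 members, against 1.95, 6.82 and 0.803% of genes. The members' medians were 1.40, 1.42 and 1.197, against 0.30, 0.53 and 0.33 over all genes. The ratio rose in all 3 lines for 21 members. Without LNCaP CTRL sh replicate 2 the LNCaP count was 22 in place of 37, and without LNCaP95 CTRL sh replicate 3 no member was called lower in LNCaP95. Counts over all genes in these fits are not given here.

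**Figure D4:**
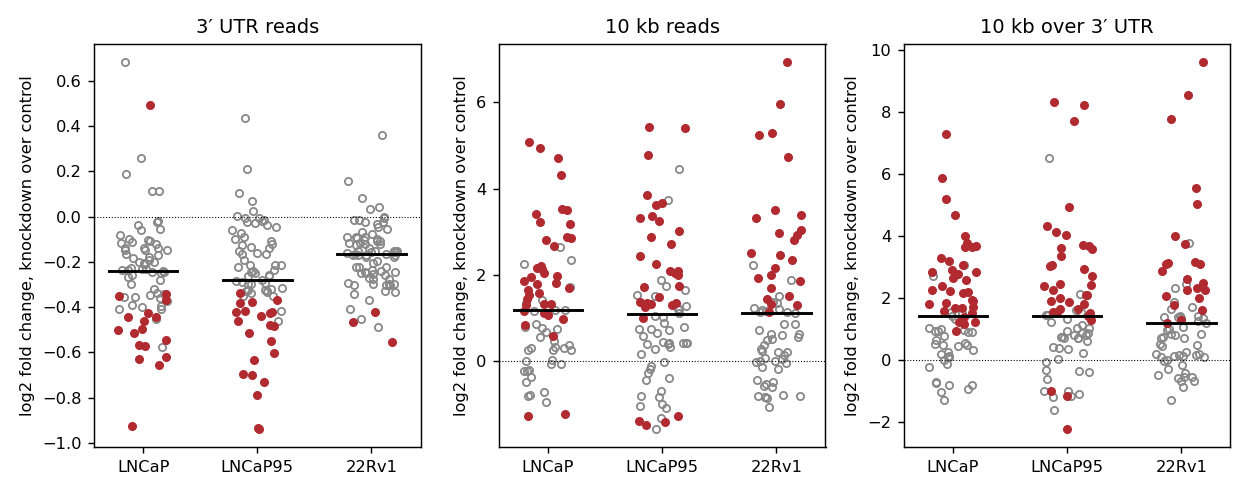
Log2 fold change of each member (points) after knockdown, by line, for 3′ UTR reads, 10 kb reads and their ratio, with the median as a bar and members with adjusted p under 0.05 filled in red; the panels have different scales. Medians lie below 0 on the left and above 1 in the middle and on the right; the size of points above 5 depends on the prior count where controls had 0 reads.

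RPL37 and RPL15 rose downstream in all 3 lines. The 10 kb region of RPL37, a zinc-binding large subunit protein (GRCh37, chr5:40815065-40825064), had 9, 3 and 6 reads in the LNCaP controls and 82, 164 and 273 (lowest, median, highest) in the knockdown libraries. LNCaP95 had 2, 6 and 9 against 133, 151 and 171 reads, and 22Rv1 had 4, 2 and 17 against 114, 204 and 371 reads. The groups were far apart in each line, and the log2 fold change was 4.30 ± 0.33, 3.86 ± 0.38 and 3.40 ± 0.31 (edgeR adjusted p = 4.25e-25, 1.39e-14 and 1.76e-17). The share of its reads that lay downstream went from 0.0538 to 1.77% (LNCaP), 0.0806 to 3.14% (LNCaP95) and 0.139 to 2.90% (22Rv1; means, exact permutation p = 0.0119 each, two-sided, the smallest that 84 arrangements allow). RPL15, whose 3′ UTR level did not pass the test in LNCaP or 22Rv1, had downstream changes of 3.41 ± 0.30, 3.31 ± 0.37 and 3.04 ± 0.35 (edgeR adjusted p = 9.91e-20, 4.53e-12 and 2.02e-12).

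RPL5 had almost no downstream reads in controls. Its 10 kb region (GRCh37, chr1:93307781-93317780) had 13, 3 and 0 reads in the LNCaP controls and 33, 82 and 130 in the knockdown libraries. In LNCaP95 it had 3, 5 and 1 against 85, 151.5 and 206 reads, and in 22Rv1 0, 1 and 2 against 36, 104 and 203. The log2 fold change was 3.501 ± 0.38 in LNCaP and 4.77 ± 0.43 in LNCaP95 (edgeR adjusted p = 2.97e-14 and 1.91e-16). In 22Rv1 the pooled share of reads was 52.9-fold higher, with a 95% counting interval of 18.03 to 257. Its partner RPL11 did not pass the test downstream in any line (log2 −0.22, 0.65 and 0.37). The canonical end of RPL11 (GRCh37, chr1:24023325) lies inside its counted 10 kb region, which begins at 24023215. Its reads there can include that end, so the 2 genes are not measured alike.

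RPL37A, another zinc-binding protein of the large subunit, had 0, 0 and 4 downstream reads in the LNCaP controls and 26, 56.5 and 88 in the knockdown libraries. The change was 4.93 ± 0.51 (edgeR adjusted p = 1.15e-15). In LNCaP95 its controls had 0 reads and the knockdown libraries 2 to 13, which is at least 4.31-fold higher over a floor of 3 reads for the group. RPS24, a small subunit protein mutated in Diamond-Blackfan anemia, had 0 reads in the 22Rv1 controls and 2, 22 and 34 in the knockdown libraries, at least 9.17-fold higher. Its change in LNCaP was 3.22 ± 0.41 and in LNCaP95 2.73 ± 0.54 (edgeR adjusted p = 5.23e-11 and 3.25e-05). RPL12 had 0, 1 and 0 reads in the LNCaP controls and 10, 15 and 35 after knockdown, 53.1-fold higher with a counting interval of 9.34 to 2114. In LNCaP95 it did not pass the test (1.65 ± 0.96, edgeR adjusted p = 0.196).

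RPS6, RPSA and RPL13 had fewer 3′ UTR reads in at least 1 line and more downstream reads in all 3. RPS6 had 22, 30 and 30 downstream reads in the LNCaP controls and 143, 205 and 463 after knockdown. Its downstream change was 2.82 ± 0.25, 2.09 ± 0.38 and 1.14 ± 0.27 in LNCaP, LNCaP95 and 22Rv1 (edgeR adjusted p = 1.69e-19, 6.35e-06 and 0.00114). RPSA rose downstream by 2.13 ± 0.30, 2.26 ± 0.38 and 2.50 ± 0.39, and RPL13 by 2.21 ± 0.33, 2.097 ± 0.51 and 3.51 ± 0.58.

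Among members that passed the test in at least 1 line, those with the lowest mean downstream changes were RPL13A, RPL23A, RPL10, RPL28 and RPLP0. RPL13A had 34, 42 and 31 downstream reads in the LNCaP controls and 7, 19 and 31 after knockdown, groups that met at 31, with a change of −1.27 ± 0.33 (edgeR adjusted p = 0.00227). RPL10, the protein that closes the peptidyl transferase center late in assembly, had 15, 22 and 25 reads there and 6, 10.5 and 20 after knockdown. It changed by −1.23 ± 0.40 (LNCaP), −1.41 ± 0.41 (LNCaP95) and 0.06 ± 0.51 (22Rv1; edgeR adjusted p = 0.0218, 0.00598 and 0.965). RPLP0 changed by −1.47 ± 0.44 in LNCaP95 (edgeR adjusted p = 0.00671) and did not pass the test in the other lines. RPLP1 and RPLP2 did not pass it in any line. Each of these falls is on the scale of the 10 kb table. When library sizes summed over the 4 tables were used instead, the median change of all genes in the 10 kb table was 0.62, 1.11 and 0.73 in place of 0.13, 0.22 and 0.19, and 0 members were called lower in any line. On that scale the changes were −0.79 for RPL13A and −0.73 for RPL10 in LNCaP, and −0.48 for RPL10, −0.49 for RPL23A, −0.36 for RPL28 and −0.60 for RPLP0 in LNCaP95, each below the change of the median gene.

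**Figure D5:**
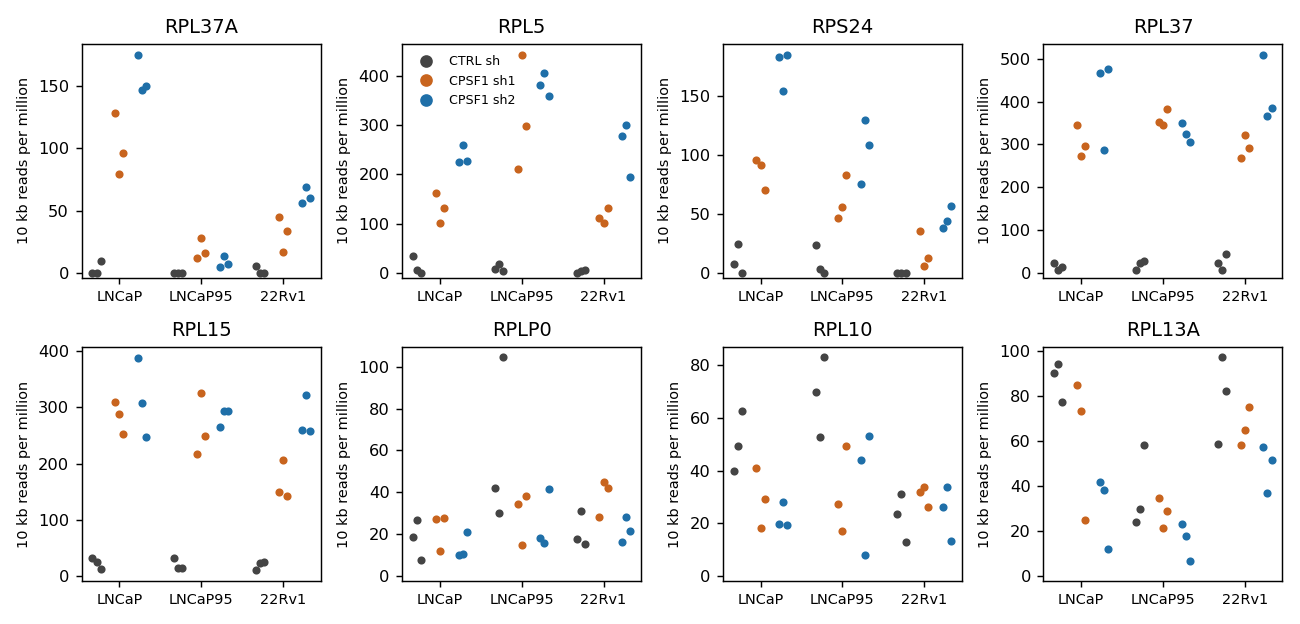
Reads in the 10 kb region, scaled to the total of the 10 kb table (CPM), in each library (points), by line and shRNA, for 5 members that rose (RPL37A, RPL5, RPS24, RPL37, RPL15) and 3 of the members with the lowest changes (RPLP0, RPL10, RPL13A); each panel has its own scale from 0. In the rising members the control points lie near 0 in all 3 lines.

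The ends of these members are shown because the poly(A) signal is the element that CPSF reads. They are the last 30 bases before the annotated end of the canonical transcript (GRCh37, Gencode), with the poly(A) signal in capitals, for 4 members with high and 4 with low downstream changes.
RPL5, chr1:93307452-93307481, plus strand: tatagatAATAAActtatgaacagcaacta
RPL37, chr5:40825364-40825393, minus strand: tttctttAATAAAgatattgtacaatgaaa
RPS24, chr10:79800426-79800455, plus strand: cgcaagaacattAATAAActaaaaacttca
RPL12, chr9:130209953-130209982, minus strand: tcAATAAAggatcatttgacaactggtgga
RPLP0, chr12:120634502-120634531, minus strand: ggaAATAAAggcttacttctttaaaaagtc
RPL10, chrX:153630644-153630673, plus strand: ccaatccacAATAAAcatggcccattggca
RPL13A, chr19:49995536-49995565, plus strand: gtaatcagaAATAAAttgcttttaaagaaa
RPL28, chr19:55903424-55903453, plus strand: gttactagAATAAAatcatctactttaaaa
Ends were shown only for members with AATAAA or ATTAAA in these last 30 bases, so a signal in all 8 was set by that choice. It was AATAAA in each, 18 to 28 bases (counted from its first base) before the end. The ends shown for RPS24, RPL28 and RPL10 lie well before the counted 10 kb region begins (GRCh37, at 79816870, 55914912 and 153637804). The canonical ends of RPL37A, RPL15, RPS20 and RPS29 also lie well before their counted regions. Reads counted downstream of these members are therefore not just past that end. Over the 81 members with a canonical transcript, 49 had AATAAA and 16 had ATTAAA in the last 50 bases of the coding strand, or 80.2%. Over 19528 canonical transcripts of all genes the share was 78.2%. The canonical end lay between the first and last counted 3′ UTR base for 75 of the 81 members, a span that can hold uncounted gaps. Those of RPL11, RPL14, RPS14 and RPS26 lay in the counted 10 kb region. The median change in ratio was 1.01, 1.35 and 1.197 for members with AATAAA and 1.06, 0.90 and 0.76 for those with ATTAAA in LNCaP, LNCaP95 and 22Rv1, with no test of the difference. Over the 15 members tested with neither hexamer the medians were 1.94, 2.44 and 1.27. RPL37A, RPL15, RPL13 and RPS6 had neither hexamer in that window, which says only that these letters are not there.

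The members' downstream regions differed in what else they hold. A Gencode protein-coding gene lay on the same strand in the 10 kb region of 29 members, among them RPL10 (TAFAZZIN), RPL23A (NEK8) and RPLP0 (GCN1). In LNCaP, 4 of 24 tested members with such a neighbor rose downstream and 2 fell, with a median of 0.31, against 32 and 0 of 50 without one, with a median of 1.70. In LNCaP95, 3 rose and 3 fell of 24 with a neighbor, at a median of −0.06, against 25 and 1 of 52 and a median of 1.4985 without. In 22Rv1, 2 rose and 0 fell of 23 with a neighbor, at a median of 0.08, against 23 and 0 of 49 and 1.33 without. Annotated exons were removed from these regions, but ends outside annotated exons of the neighbor would be counted for the member. The part of the neighbors in these values was not tested. Of the 82 members, 29 host a small nucleolar RNA on the same strand.

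The line-by-knockdown term in the 10 kb table was called for 2 members in LNCaP95 against LNCaP (2.48% of all genes), 1 in 22Rv1 against LNCaP (1% of all genes) and 3 in 22Rv1 against LNCaP95 (4.15%). RPS6 changed by 1.63 less on the log2 scale in 22Rv1 than in LNCaP (−1.63, edgeR adjusted p = 0.0311). RPL14, a large subunit protein, changed more in LNCaP95 than in LNCaP (1.90, edgeR adjusted p = 0.000111) and RPS15A less (−2.12, edgeR adjusted p = 0.0261). The canonical end of RPL14 (GRCh37, chr3:40510078) lies inside its counted 10 kb region, so its reads there can include that end.

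With each shRNA set against the same controls, the median member's downstream change was 1.00 for CPSF1 sh1 and 1.38 for CPSF1 sh2 (LNCaP), 0.86 and 1.08 (LNCaP95), and 0.70 and 1.22 (22Rv1). The downstream share without RPS2 (mean ± SD, n = 3) was 0.274 ± 0.030 and 0.394 ± 0.034% (LNCaP), 0.441 ± 0.13 and 0.620 ± 0.080% (LNCaP95), and 0.224 ± 0.0084 and 0.373 ± 0.0029% (22Rv1). The libraries of the 2 shRNAs did not overlap in LNCaP or 22Rv1 and overlapped in LNCaP95. In the 3′ UTR table the medians were −0.30 and −0.17, −0.28 and −0.26, and −0.09 and −0.26. Members called lower there were 39 for CPSF1 sh1 and 8 for CPSF1 sh2 of 79 in LNCaP, where 12.8 and 6.15% of genes were. In LNCaP95 they were 10 and 32 (7.48 and 16.2% of genes), and in 22Rv1 0 and 4 (0.00874 and 1.21%).

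Within the annotated gene spans, reads in CDS followed the 3′ UTRs and some introns gained reads. Of 67 members tested in the CDS table, 8 were lower and 0 higher in LNCaP (3.31 and 3.8% of genes), 5 of 60 lower and 0 higher in LNCaP95 (4.99 and 7.51%), and 1 of 64 lower and 0 higher in 22Rv1 (0.445 and 0.567%). RPL34 was the member lower in all 3 lines, with CDS log2 fold changes of −0.59, −0.60 and −0.64. Among intron reads, 9 of 50 members tested in LNCaP rose and 0 fell (8.7 and 5.62% of genes), 11 of 42 rose and 1 fell in LNCaP95 (13 and 10.8%), and 5 of 50 rose and 4 fell in 22Rv1 (2.62 and 1.75%). RPL37A, RPS20, RPS27L, RPL27A and RPL31 had more intron reads in each line, with log2 fold changes for RPL37A of 2.94, 2.29 and 2.73. RPL37A thus gained reads in its counted introns as well as downstream. Its canonical end (GRCh37, chr2:217368809) lies well before its counted 10 kb region, which begins at 217444203. The same holds for RPS20, RPS27L, RPL27A and RPL31. Intron reads of these members can therefore lie past that end.

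Other genes of the translation machinery were described from fixed lists. Of 24 other TOP messages tested, such as those for elongation factors and PABPC1, 19 were lower and 0 higher in LNCaP95 against LNCaP controls, with a median of −0.89 (20.2 and 19.1% of all genes). Their downstream to 3′ UTR ratio rose after knockdown for 9 of 22 (LNCaP), 15 of 23 (LNCaP95) and 9 of 21 (22Rv1), with medians of 1.28, 2.19 and 1.15. Over all genes it rose for 8.39, 21.2 and 6.65%, with medians of 0.30, 0.53 and 0.33. Genes of ribosome assembly, such as nucleolin and fibrillarin, had 3′ UTR reads that rose after knockdown for 7 of 30 in LNCaP and 14 of 30 in LNCaP95, fell for 0 and 1, and passed for 0 of 30 in 22Rv1, where 8.24, 15.2 and 0.678% of all genes rose and 10.1, 15.2 and 0.791% fell. Their 3′ UTR medians were 0.27, 0.43 and −0.01. Between control lines, 10 of 30 were lower and 2 higher in LNCaP95 against LNCaP, with a median of −0.25. Of 72 mitochondrial ribosomal protein genes, 12 were lower and 15 higher there, with a median of 0.03, where 20.2% of all genes were lower and 19.1% higher. After knockdown their ratio rose for 6 of 63, 19 of 66 and 5 of 66, with medians of 0.35, 0.71 and 0.27, beside 8.39, 21.2 and 6.65% of all genes.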

How the data were processed

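PAC-seq libraries of 3 prostate cancer lines with a control shRNA or 1 of 2 CPSF1 shRNAs were compared in 27 samples, 3 per group, called biological replicates by the study. The authors removed poly(A) sequence with DPAC, aligned reads to GRCh37 with HISAT2 2.1.0 and counted the 3′-most base of same-strand reads with Subread (2.0.3 in the submitters' processing notes, another version in the study's methods). The deposited values are raw read counts per gene over 3′ UTRs (extended by 300 bases), introns, CDS and 10 kb regions with same-strand exons removed. Samples were grouped by their titles.

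Counts were tested with edgeR 4.0.16 (quasi-likelihood F-test, TMM) in R 4.3.3, per line and table, 6 knockdown against 3 control libraries, for genes above a mean of 2 CPM, with Benjamini-Hochberg adjustment at 0.05 over all genes tested. The SE is the absolute log2 fold change divided by the square root of F. Levels in CPM are on 1 TMM scale over 27 libraries per table. Downstream reads relative to 3′ UTR reads were tested as a region-by-knockdown term with a term per library, control lines over 9 libraries, and differences between lines as an interaction over 27. The knockdown tests of 3′ UTR reads, 10 kb reads and their ratio were tried on data simulated from the LNCaP95 libraries. The other tests were not tried in this way. Alternatives were DESeq2 1.42.0, other filters and scalings, a replicate block and leaving out each library.

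Members named are the 3 with most control reads, per table the 5 highest and 5 lowest by mean change over lines among those called in at least 1, the 4 largest differences between each pair of control lines, and members set by role; others were chosen after their values were seen. The members and lists were chosen with earlier results of these data known. Intervals cover counting error only. Some members are not reported here by name.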

Additional observations from a re-analysis of the deposited data

Results flagged for a closer look

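Among 180 groups of 6 knockdown libraries, of named members or of summed shares, 13 held a library far from the other 5. Chance gives about 1 in 20 where the 6 libraries are alike, but each group pools CPSF1 sh1 and CPSF1 sh2. Downstream of RPS2, LNCaP CPSF1 sh2 replicate 2 stood at 184894 CPM of the 10 kb table, and 22Rv1 CPSF1 sh1 replicate 2 at 23.8 CPM. LNCaP CPSF1 sh2 replicate 1 stood apart downstream of RPL15 (468 CPM) and RPL3 (168 CPM) and in the 3′ UTR of RPS6 (4555 CPM). The 3′ UTR of RPL10 stood apart in LNCaP CPSF1 sh2 replicate 2 (1003 CPM) and LNCaP95 CPSF1 sh1 replicate 2 (315 CPM), and that of RPS3 in the latter library (280 CPM). RPL28 stood apart downstream in LNCaP CPSF1 sh1 replicate 3 (137 CPM). RPL3 stood apart in the 3′ UTR in LNCaP95 CPSF1 sh1 replicate 3 (2123 CPM) and downstream in LNCaP95 CPSF1 sh2 replicate 3 (87.3 CPM). RPL12 stood apart in the 3′ UTR in 22Rv1 CPSF1 sh1 replicate 1 (1999 CPM) and RPL39 downstream in 22Rv1 CPSF1 sh2 replicate 1 (10.5 CPM).

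The change after knockdown differed between lines, by the edgeR interaction term, for 8 members. In the 3′ UTR table the change in 22Rv1 minus that in LNCaP95 was 0.48 for RPS29 and 0.60 for RPSA. In the 10 kb table the change in LNCaP95 minus that in LNCaP was 1.90 for RPL14 and −2.12 for RPS15A, and that in 22Rv1 minus LNCaP was −1.63 for RPS6. The change in 22Rv1 minus that in LNCaP95 was −2.71 for RPL9, −1.69 for RPS23 and 2.03 for RPS27.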

How the results depend on the processing

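Many members had under 10 control reads in the 10 kb table. Of the values recomputed under alternatives, 2878 kept their direction and side of the threshold, 201 lost the call or fell in count, 14 gained, 2 moved and 1 reversed. Where a value changed, the cause was not tested.

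With library sizes summed over the 4 tables, members called higher downstream were 38 in 22Rv1 and 48 in LNCaP95 (of all genes, 2701 of 14372 and 5264 of 14789), and those called lower were 0 in LNCaP and 0 in LNCaP95. The ratio was then called higher for 41 members in 22Rv1 and 52 in LNCaP95 (of all genes, 2549 of 10088 and 4728 of 10110). It was called lower for 0 in LNCaP95. 3′ UTR reads were called lower for 7 members in 22Rv1 (of all genes, 231 of 11501). They were called lower for 34 in LNCaP95, with the count over all genes not given here. The ratio of RPL28 in LNCaP95 reversed to 0.0139. With more than 2 CPM in every library, 14 members were higher and 1 lower downstream in 22Rv1 (of all 7297 genes, 580 and 602). DESeq2 called 2 lower downstream and 7 lower in the 3′ UTR in 22Rv1 (of all genes, 559 of 14372 and 208 of 11501). The 22Rv1 downstream share rose 5.43-fold by the median member, and the share of reads in members was 0.864 of control over the 4 tables.

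Same-numbered libraries correlated from −0.44 to 0.67, so the numbers were not taken to pair them. With a replicate block, 1 member was called lower in the 3′ UTR in 22Rv1 (of all genes, 75 of 11501). None was called higher in LNCaP, and no other count moved by over 1.5 times.

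Leaving out 1 library gave these ranges of member counts, given without the counts over all genes. In the 3′ UTR table, members called lower were 7 to 29 (LNCaP), 14 to 30 (LNCaP95) and 0 to 6 (22Rv1), and higher 0 to 1 in LNCaP and 0 to 1 in LNCaP95. The lowest and highest LNCaP counts came without CTRL sh replicate 1 and without CPSF1 sh2 replicate 2, 14 without LNCaP95 CTRL sh replicate 1, and 0 and 6 without 22Rv1 CTRL sh replicate 3 and CPSF1 sh1 replicate 1. Downstream, members called lower were 1 to 3 in LNCaP and 0 to 1 in 22Rv1. The ratio was called higher for 22 to 37 in LNCaP, 22 without CTRL sh replicate 2, and lower for 0 to 4 in LNCaP95, 0 without CTRL sh replicate 3. Between controls, members higher in LNCaP95 than LNCaP were 1 to 2, and lower in 22Rv1 than LNCaP95 1 to 2. Without both LNCaP libraries with RPS2 reads downstream, chosen after seeing the data, 28 members were higher downstream, 26 in the ratio, and 23 lower in the 3′ UTR. Counts over all genes are not given for this fit either.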
